A study of Mus musculus with 2 samples.

Results

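The integrin subunits of liver endothelium were followed in a homozygous and a heterozygous Gimap5 mutant mouse. The set held 9 genes out of 31053 in the count matrices: the alpha subunits Itga1, Itga2, Itga5, Itga6, Itga9 and Itgav and the beta subunits Itgb1, Itgb3 and Itgb5. They were taken by symbol, and all 9 had a row in both matrices. The cells came from the livers of 1 adult Gimap5sph/sph mouse and 1 adult Gimap5sph/+ mouse of C57BL/6 background, and each mouse gave 1 droplet library of the 10x Genomics 3' kit, version 3. The sort kept DAPI-negative cells with CD31 (Pecam1, an endothelial adhesion molecule) and without CD45 (Ptprc, a leukocyte phosphatase). Gimap5 encodes a small GTPase of lymphocytes and endothelium. Both mice carried the sphinx (sph) allele, and no wild-type liver was part of the comparison. The genotypes are written sph/sph and sph/+ from here on.

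Integrins are heterodimers of an alpha and a beta subunit that tie the extracellular matrix to the actin cytoskeleton. The alpha subunit largely sets the ligand: Itga1 and Itga2 with Itgb1 bind collagens, Itga6 binds laminins, Itga5 with Itgb1 binds fibronectin, and Itgav with Itgb3 or Itgb5 binds vitronectin and other RGD-containing ligands. Laminins and collagen IV form the sheets of the basement membrane. The sinusoidal endothelium of healthy liver is known for open pores, scavenger receptors and the lack of a continuous basement membrane, whereas capillaries of most other organs rest on one.

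The sph/sph library held 16386 barcodes and the sph/+ library 13136, with 68983780 and 64460283 unique molecular identifiers (UMIs, each standing for 1 captured transcript). After filtering, 10674 of 11331 sph/sph cells and 9989 of 10967 sph/+ cells were endothelial-like, with medians of 3906 and 4345 UMIs per cell. Ptprc had 3 UMIs in the endothelial-like cells of each library, and Pecam1 stood at 1044 CPM (counts per 1000000 UMIs) in sph/sph and 724 CPM in sph/+. The libraries shared 17 barcodes among kept cells. All 12 markers of liver sinusoidal endothelial cells (LSEC) were lower in sph/sph, with a summed level of 1215 CPM in sph/sph and 20607 CPM in sph/+. The 15 markers of continuous endothelium summed to 9354 CPM in sph/sph and 2085 CPM in sph/+. Continuous vascular-like cells made up 70.5% of endothelial-like cells in sph/sph (7530 cells), against 6 cells in sph/+. LSEC-like cells numbered 3 in sph/sph and 9730 in sph/+ (97.4%), so neither class, as named here, could be compared between genotypes within itself. The count of 3 rests on a cutoff of 10 of 12 LSEC markers that was set after the data were seen. A group of 868 sph/sph cells, cluster 8 below, had 9 of 12 detected and stayed unnamed. No test was possible with 1 mouse per genotype, and genotype cannot be told apart from library. The intervals given are exact 95% intervals that cover counting error only.

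Over all endothelial-like cells, the sph/sph level was 2-fold or more above the sph/+ level for Itga6, Itga2, Itgb3 and Itgav, and 2-fold or more below it for Itga9. Itga1, Itga5 and Itgb1 lay within 2-fold. Itgb5 did not reach 20 CPM in either library and was not counted as measured. Among 7465 genes that reached 20 CPM in at least 1 library, 11.0% were at least 2-fold higher and 10.6% at least 2-fold lower in sph/sph, with a median log2 ratio of -0.07. The 4 higher and 1 lower of 8 measured members are read against those shares. Itga2 and Itgb3 reached 20 CPM in sph/sph only, so that their difference follows in part from how measured genes were chosen. The median log2 ratio of the 8 measured members was 1.19.

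**Figure D1:**
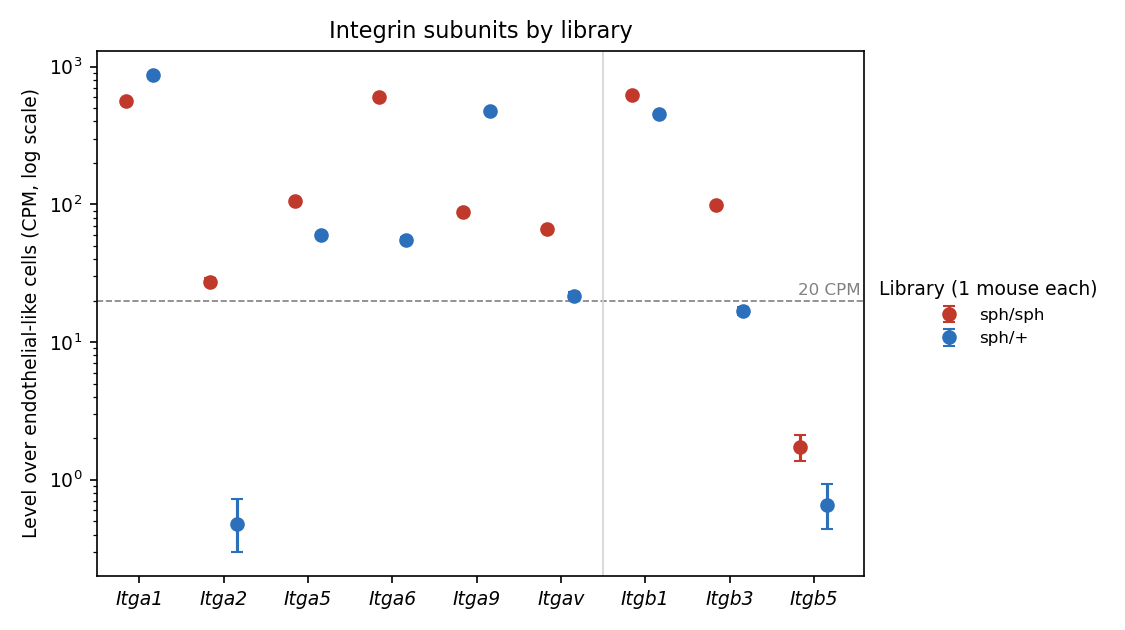
Level of each integrin subunit over all endothelial-like cells of a library, in CPM on a log scale, with 95% Poisson intervals of the count (most are smaller than the point). Alpha subunits stand left of the grey line and beta subunits right of it, and the dashed line marks 20 CPM. Itga6 stood at 605 CPM in sph/sph and 55.4 CPM in sph/+, and Itga9 at 88.5 and 474 CPM.

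Clusters give the finer view. Cells of both libraries were clustered together, with the genes described here kept out of the genes that drew the clusters. In 22 of the 25 clusters, more than 95% of the cells belonged to the same library. In sph/sph, 10 endothelial-like clusters had at least 50 cells. The continuous vascular-like ones were cluster 3 (led by Hspa1a and Aplnr), cluster 4 (Rgcc, Lpl and Car4), cluster 5 (Angptl4, Ch25h and Apln), cluster 7 (Igfbp3, Esm1 and Cxcl12) and cluster 16 (Vwf, Fbln5 and Gja5). Cluster 6 was lymphatic-like, and clusters 9 and 14 were cycling. Cluster 8 (868 cells, led by Sprr2b, Tubb3 and Rgs2) stayed unnamed, with 9 of 12 LSEC markers and 8 of 15 continuous markers detected. In sph/+, 9 clusters had at least 50 cells. The LSEC-like ones were cluster 0 (Aass, Fcgr2b and Oit3), cluster 1 (Msr1, Ntn4 and Efnb1), cluster 2 (Wnt2, Kit and Rspo3), cluster 10 (Flrt1, Gatm and Id4), cluster 13 (Ifit1 and Cmpk2) and cluster 15 (Nrg1, Adgrg6 and Gja5). Cluster 22 was cycling, and cluster 23, led by the replication gene Mcm5, was unnamed. The unnamed cluster 17 (Rspo3, Inhba and Wnt9b) was the most mixed endothelial-like cluster, with 150 sph/sph and 74 sph/+ cells. The other 2 clusters under 95% were cycling cluster 14, with 377 and 23 cells, and the macrophage-marked cluster 18, with 22 and 186 cells.

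**Figure D2:**
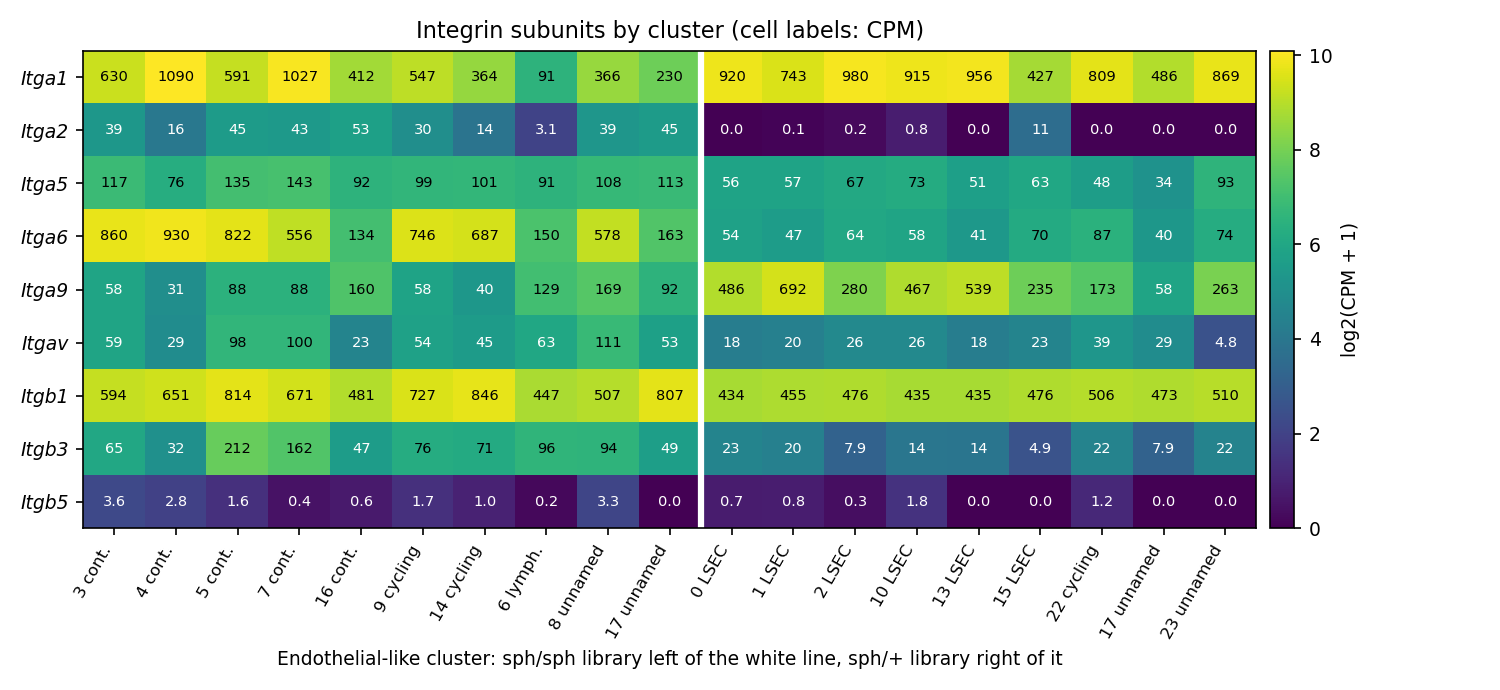
Level of each integrin subunit (rows) in each endothelial-like cluster with at least 50 cells of a library (columns), with the CPM printed in each field and the colour giving log2(CPM + 1). Itga6 reached 930 CPM in sph/sph cluster 4 and stayed at or under 87.2 CPM in every sph/+ cluster, while Itga9 reached 692 CPM in sph/+ cluster 1 and 169 CPM at most in sph/sph.

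The collagen receptors Itga1 and Itga2 differed from each other in how they stood between the libraries. They are neighbours on mouse chromosome 13, both on the minus strand: Itga1 lies at chr13:114953096-115101964 and Itga2 at chr13:114833081-114932100 of GRCm38, with 20995 bases between them. The window from 250 bases before to 50 bases after the start of each is shown because these neighbours, which share a ligand class, had log2 ratios of -0.63 and 4.27. The windows are those of RefSeq on GRCm38.p6, written 5′ to 3′ on the minus strand, at chr13:115101915-115102214 for Itga1 and chr13:114932051-114932350 for Itga2. Capitals mark a match to any of 4 motifs searched on both strands.
Itga1: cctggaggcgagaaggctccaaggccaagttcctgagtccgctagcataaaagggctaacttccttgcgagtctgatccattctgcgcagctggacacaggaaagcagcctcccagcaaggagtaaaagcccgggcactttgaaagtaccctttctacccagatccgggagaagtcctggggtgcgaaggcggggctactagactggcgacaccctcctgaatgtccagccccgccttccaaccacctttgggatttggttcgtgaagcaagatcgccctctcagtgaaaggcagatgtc
Itga2: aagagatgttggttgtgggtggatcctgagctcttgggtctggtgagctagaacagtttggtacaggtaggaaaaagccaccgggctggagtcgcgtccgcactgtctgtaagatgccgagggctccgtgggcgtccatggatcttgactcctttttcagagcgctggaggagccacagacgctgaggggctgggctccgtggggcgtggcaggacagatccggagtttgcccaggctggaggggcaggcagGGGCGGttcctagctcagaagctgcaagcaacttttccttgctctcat

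The motifs were AGATAA, which is bound by GATA factors, CCGGAA, which is bound by ETS factors, GGGCGG, which is bound by SP and KLF factors, and TGANTCA, which is bound by AP-1. Over 32851 such windows of the mouse genome, they were found in 11.18%, 14.9%, 35.66% and 7.808%. The Itga1 window held none of them. The Itga2 window held GGGCGG at position 253, counted from its 5′ end, and no other. A match is a description of letters and not evidence of binding.

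Itga1 had 561 CPM in sph/sph (28731 UMIs) and 868 CPM in sph/+ (39940 UMIs), a ratio of 0.647 (0.637 to 0.657). The lower level in sph/sph was not shared by all of its clusters. Cluster 4 had 1090 CPM (1068 to 1113), above the highest sph/+ cluster, cluster 2, at 980 CPM (960 to 999). Cluster 7 had 1027 CPM (998 to 1056), and its interval overlapped that of sph/+ cluster 2. Sph/sph clusters 3, 5 and 9 had 547 to 630 CPM, clusters 16, 8 and 14 had 364 to 412 CPM, cluster 17 had 230 CPM, and the lymphatic-like cluster 6 had 90.8 CPM. The range within sph/sph was therefore wider than the difference between libraries. In sph/+ the counting intervals of cluster 2 and cluster 13 (956 CPM) overlapped, and so did those of each neighbouring pair down to cluster 1 (743 CPM), while cluster 17 (486 CPM) and cluster 15 (427 CPM) stood lower. Continuous vascular-like cells of sph/sph had 799 CPM against 872 CPM in LSEC-like cells of sph/+, a ratio of 0.916 (0.902 to 0.931). Itga1 overlaps Pelo and Gm49395 on its own strand and Gm10734 on the other, and how such reads were assigned is not given in the sources used here.

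Itga2 had 1408 UMIs in sph/sph (27.5 CPM) and 22 UMIs in sph/+ (0.478 CPM), a ratio of 57.5 (37.8 to 92.1). Of the 22 sph/+ UMIs, 16 lay in the 268 cells of cluster 15, which stood at 11.3 CPM (6.43 to 18.3). The other sph/+ endothelial-like clusters had 0 to 3 UMIs each. In sph/sph, 7 clusters from 30.5 CPM (cluster 9) to 52.9 CPM (cluster 16) formed a run in which each interval overlapped the next. Cluster 4 and cluster 14 were lower, at 15.6 and 13.9 CPM, and cluster 6 had 3.11 CPM. Cluster 4 thus held the highest level of Itga1 and the third lowest of Itga2 within sph/sph.

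Itga6, the alpha subunit of laminin receptors with Itgb1 or Itgb4, had the highest ratio of the members that reached 20 CPM in both libraries. It stood at 605 CPM in sph/sph (30966 UMIs) and 55.4 CPM in sph/+ (2552 UMIs), a ratio of 10.9 (10.5 to 11.4). Within sph/sph its clusters fell into a high run and a low run. Clusters 4, 3, 5, 9, 14, 8 and 7 had 930, 860, 822, 746, 687, 578 and 556 CPM. Clusters 17, 6 and 16 had 163, 150 and 134 CPM, with overlapping intervals, and these 3 clusters share Vwf or lymphatic genes among their leading genes. All 9 sph/+ clusters lay between 39.7 CPM (cluster 17) and 87.2 CPM (cycling cluster 22), and each overlapped its neighbour in that order. The lowest sph/sph cluster was above the highest sph/+ cluster. Itga6 lies at chr2:71745616-71858416 on the plus strand, and the antisense gene Gm17250 overlaps it.

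Itga9, which with Itgb1 binds tenascin C and other non-collagen ligands, was the member that was higher in sph/+ by more than 2-fold. It had 88.5 CPM in sph/sph (4531 UMIs) and 474 CPM in sph/+ (21837 UMIs), a ratio of 0.187 (0.181 to 0.193). Its highest sph/sph clusters were cluster 8 at 169 CPM and cluster 16 at 160 CPM, followed by lymphatic-like cluster 6 at 129 CPM. Cluster 4 was the lowest at 30.9 CPM. The lymphatic-like cells gave 33.0% of all sph/sph Itga9 UMIs while holding 22.6% of the UMIs of all genes. Among sph/+ clusters, cluster 1 stood at 692 CPM, cluster 13 at 539 CPM, cluster 0 at 486 CPM and cluster 10 at 467 CPM. Clusters 2, 23, 15 and 22 had 280, 263, 235 and 173 CPM, and cluster 17 had 58.2 CPM. Cluster 2, led by the pericentral genes Wnt2 and Rspo3, and cluster 1, led by the periportal genes Msr1 and Ntn4, therefore differed within 1 liver: the ratio of cluster 2 to cluster 1 was 0.405 (0.388 to 0.422). Itga9 lies at chr9:118606690-118901003 on the plus strand, and the antisense gene Gm2415 overlaps it.

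**Figure D3:**
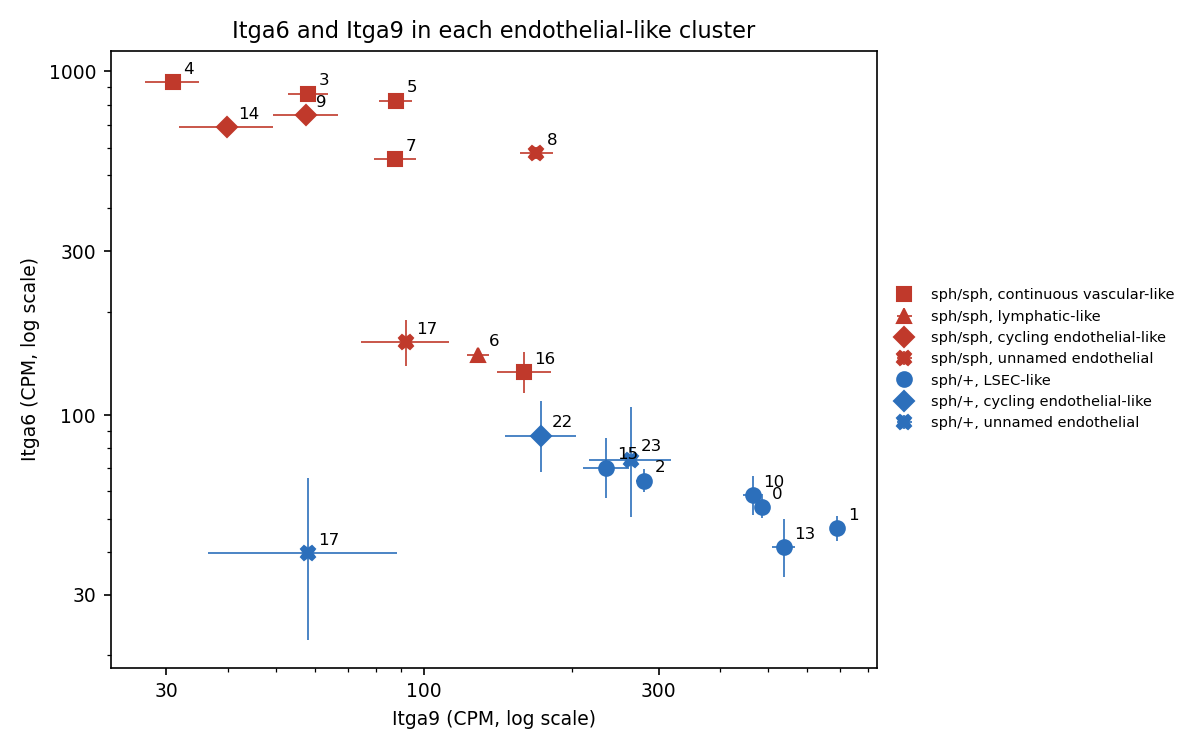
Itga6 against Itga9 level in each endothelial-like cluster, both in CPM on log scales, with 95% Poisson intervals and cluster numbers. Sph/sph clusters occupy the range from 134 to 930 CPM of Itga6 and from 30.9 to 169 CPM of Itga9, and sph/+ clusters lie under 87.2 CPM of Itga6.

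Itga5, the alpha subunit of the classical fibronectin receptor, had 106 CPM in sph/sph (5446 UMIs) and 60.1 CPM in sph/+ (2766 UMIs), a ratio of 1.77 (1.69 to 1.85). Sph/sph clusters lay between 76.3 CPM (cluster 4) and 143 CPM (cluster 7), with clusters 7 and 5 (135 CPM) at the top and overlapping each other. Sph/+ clusters lay between 34.4 CPM (cluster 17, 13 UMIs) and 93.4 CPM (cluster 23), and every neighbouring pair overlapped. The highest cluster was 1.87 times the lowest in sph/sph and 2.72 times in sph/+. The sph/+ figure rests on the small unnamed clusters 23 (39 UMIs in 51 cells) and 17 (13 UMIs in 74 cells). With cells brought to equal depth, 3.92% of cluster 23 cells had an Itga5 UMI, the lowest share among sph/+ clusters. Over the LSEC-like clusters alone, Itga5 lay between 50.6 and 72.8 CPM. A wider spread between clusters in sph/+ than in sph/sph therefore cannot be read from these figures. Itga5 lies at chr15:103344286-103366763 on the minus strand.

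Itgav and Itgb3, which pair as a receptor for vitronectin and are known from sprouting vessels, were both higher in sph/sph. Itgav had 66.5 CPM in sph/sph (3404 UMIs) and 21.7 CPM in sph/+ (999 UMIs), a ratio of 3.06 (2.85 to 3.29). Itgb3 had 99.1 CPM in sph/sph (5073 UMIs) and 16.9 CPM in sph/+ (776 UMIs), a ratio of 5.88 (5.45 to 6.35). Itgav lies at chr2:83724397-83806916 and Itgb3 at chr11:104608000-104670476, both on the plus strand. For Itgav the highest sph/sph clusters were 8, 7 and 5, and for Itgb3 they were 5, 7, 6 and 8. Cluster 5 had 212 CPM of Itgb3 and 97.8 CPM of Itgav, and cluster 7 had 162 and 100.1 CPM. Cluster 8 had the highest Itgav level, 111 CPM, with 93.7 CPM of Itgb3, and its Itgav interval overlapped that of cluster 7. The lymphatic-like cluster 6 had 95.9 CPM of Itgb3, with an interval that overlapped that of cluster 8, and 63.2 CPM of Itgav, the fourth highest level. Cluster 4 had 32.5 CPM of Itgb3 and 29.4 CPM of Itgav, and cluster 16 had 47.1 and 22.6 CPM. Across the 10 sph/sph clusters the log2 levels of Itgav and Itgb3 had a Pearson r of 0.83, and across the 9 sph/+ clusters an r of -0.32, where Itgav rested on 2 UMIs in cluster 23. The points of each library share its cells' source and depth, so that r is a description. In sph/+, Itgb3 was highest in cluster 0 at 22.6 CPM and lowest in cluster 15 at 4.92 CPM (7 UMIs), with 7.95 CPM in cluster 2 against 19.8 CPM in cluster 1, a ratio of 0.401 (0.308 to 0.519).

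Cluster 7, whose leading genes include the angiogenic tip cell gene Esm1, and cluster 4, led by the capillary genes Rgcc, Lpl and Car4, were continuous vascular-like clusters of the same mouse with different integrin levels. Relative to cluster 4, cluster 7 had 4.97 times the Itgb3 level (4.32 to 5.74), 3.40 times the Itgav level (2.91 to 3.99), 2.83 times the Itga9 level, 2.76 times the Itga2 level and 1.87 times the Itga5 level. Itga6 went the other way, at 0.598 times (0.572 to 0.626). Itgb1 was close in both, with 671 CPM in cluster 7 and 651 CPM in cluster 4, a ratio of 1.03 (0.987 to 1.08). The Itga1 ratio was 0.942 (0.909 to 0.976).

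Itgb1, the partner of most alpha subunits of the set, had 620 CPM in sph/sph (31771 UMIs) and 454 CPM in sph/+ (20886 UMIs), a ratio of 1.37 (1.34 to 1.39). In sph/sph it was highest in cycling cluster 14 (846 CPM), cluster 5 (814 CPM) and cluster 17 (807 CPM), whose intervals overlapped in turn, and lowest in cluster 6 (447 CPM). All 9 sph/+ clusters lay between 434 and 510 CPM, with overlapping neighbours throughout. Its highest sph/+ cluster was 1.18 times its lowest, against 11.9 times for Itga9. That Itga9 figure rests on the small unnamed cluster 17 as the lowest, with 22 UMIs in 74 cells. Over the LSEC-like clusters alone, Itga9 lay between 235 and 692 CPM and Itgb1 between 434 and 476 CPM. Itgb1 lies at chr8:128685654-128733200 and Itgb5 at chr16:33829665-33949338, both on the plus strand. Itgb5, the other beta partner of Itgav, had 88 UMIs in sph/sph (1.72 CPM) and 30 UMIs in sph/+ (0.652 CPM), both under the level at which a gene was counted as measured. Outside the endothelial-like cells it had 126 UMIs (60.2 CPM) in the 172 cholangiocyte-marked cells of sph/+ (bile duct lining cells).

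Per cell, the picture was taken after each cell was thinned to 2000 UMIs, which left 9765 sph/sph and 9573 sph/+ cells and set aside 909 and 416 shallower ones. A UMI of Itga6 was seen in 66.2% of sph/sph cells (65.2 to 67.1) and 9.59% of sph/+ cells (9.01 to 10.2). Before thinning the shares were 84.1% and 20.1%. Shares before thinning are given over all 10674 sph/sph and 9989 sph/+ endothelial-like cells, the shallower ones included. Itga9 was seen in 13.8% of sph/sph cells and 57.8% of sph/+ cells, against 26.8% and 78.5% before thinning. Itga1 was seen in 60.4% and 78.6%, Itgb1 in 67.8% and 57.9%, Itga5 in 19.3% and 11.2%, Itgb3 in 15.9% and 3.30%, Itgav in 11.3% and 4.03%, and Itga2 in 5.57% and 0.0940% of sph/sph and sph/+ cells. Before thinning these 6 shares were 78.4% and 92.9%, 84.5% and 82.2%, 36.0% and 23.7%, 29.3% and 6.998%, 23.4% and 9.29%, and 10.8% and 0.210%. The order of the libraries by Itgb1 share was the same before and after thinning. At least 1 alpha and at least 1 beta member were seen together in 66.0% of sph/sph cells (65.1 to 66.9) and 55.2% of sph/+ cells (54.2 to 56.2). A pair of beta members was seen in 11.3% and 2.02%. Every class of cells in these libraries carried endothelial transcripts, so none served as a background without integrins. The hepatocyte-marked cells, for comparison, had Itga6 in 67.3% of 397 thinned sph/sph cells and 6.42% of 109 thinned sph/+ cells. Over all 526 sph/sph and 117 sph/+ cells of that class, the medians before thinning were 3213 and 4989 UMIs.

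Of the 11 laminin and 6 collagen IV chains, 7 were measured, and the sph/sph level was 2-fold or more above the sph/+ level for 4 of these and 2-fold or more below it for 0, beside 11.0% higher and 10.6% lower over all measured genes. Their median log2 ratio was 2.16, against -0.07 over all measured genes. Lamb1 reached 20 CPM in sph/sph only, so that its difference follows in part from how measured genes were chosen. The higher ones were the collagen IV pair and the laminin chains Lamb1 and Lamc1. Col4a1 had 2630 CPM in sph/sph and 587 CPM in sph/+, a ratio of 4.48 (4.42 to 4.54). Col4a2, its partner in the common collagen IV trimer, had 1235 and 245 CPM, a ratio of 5.05 (4.95 to 5.15). Lamb1 had 306 CPM in sph/sph (15668 UMIs) and 0.4997 CPM in sph/+ (23 UMIs), a ratio of 612 (408 to 966). Lamc1, the gamma chain of most endothelial laminins, had 285 CPM in sph/sph and 38.4 CPM in sph/+, a ratio of 7.43 (7.07 to 7.81). The endothelial alpha chains differed less: Lama4 had 305 CPM in sph/sph and 188 CPM in sph/+, a ratio of 1.63, and Lama5 had 45.9 and 34.2 CPM, a ratio of 1.34. Lamb2 was level, with 91.7 CPM in sph/sph and 89.8 CPM in sph/+, a ratio of 1.02 (0.979 to 1.06). The minor chains Col4a3 and Col4a4 went the other way under the measured level, with 0 and 14 UMIs in sph/sph against 117 and 251 UMIs in sph/+.

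**Figure D4:**
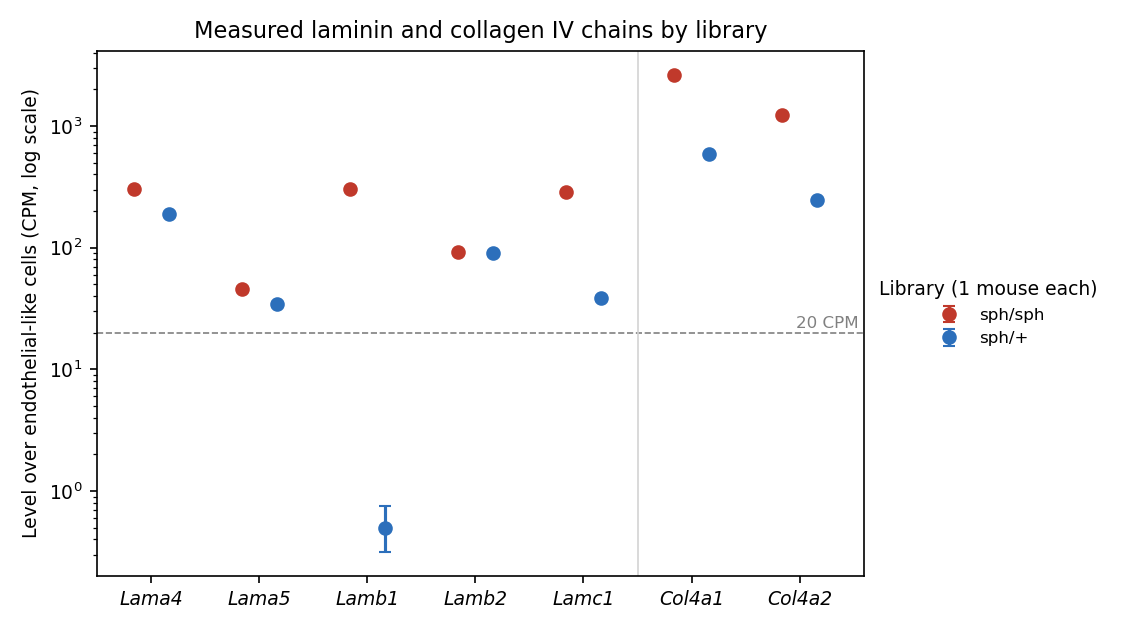
Level of the 7 measured laminin and collagen IV chains over all endothelial-like cells of a library, in CPM on a log scale with 95% Poisson intervals of the count. Laminins stand left of the grey line and collagen IV right of it, and the dashed line marks 20 CPM. Lamb1 stood at 306 CPM in sph/sph and 0.4997 CPM in sph/+, while Lamb2 stood at 91.7 and 89.8 CPM.

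Among sph/sph clusters, Col4a1 and Lamb1 were high in 6 of the 7 clusters in which Itga6 was high, and cluster 8 was the exception. Clusters 3, 4, 5, 7, 9 and 14 had 2593 to 4123 CPM of Col4a1 and 285 to 518 CPM of Lamb1. Clusters 16, 6, 17 and 8 had 502, 630, 847 and 1199 CPM of Col4a1 and 23.2, 125, 23.5 and 17.1 CPM of Lamb1. Cluster 8 thus paired 578 CPM of Itga6 with 17.1 CPM of Lamb1. Cluster 16 was high in the other beta chain, with 283 CPM of Lamb2 against 55.3 to 187 CPM in the other 9 sph/sph clusters. In sph/+ the collagen IV chains varied less, with 421 to 656 CPM of Col4a1 in 8 clusters and 164 CPM in cluster 17. Lama4 in sph/+ moved with Itga9 between the clusters with pericentral and periportal genes: it had 85.4 CPM in cluster 2 and 257 CPM in cluster 1, a ratio of 0.332 (0.307 to 0.358).

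**Figure D5:**
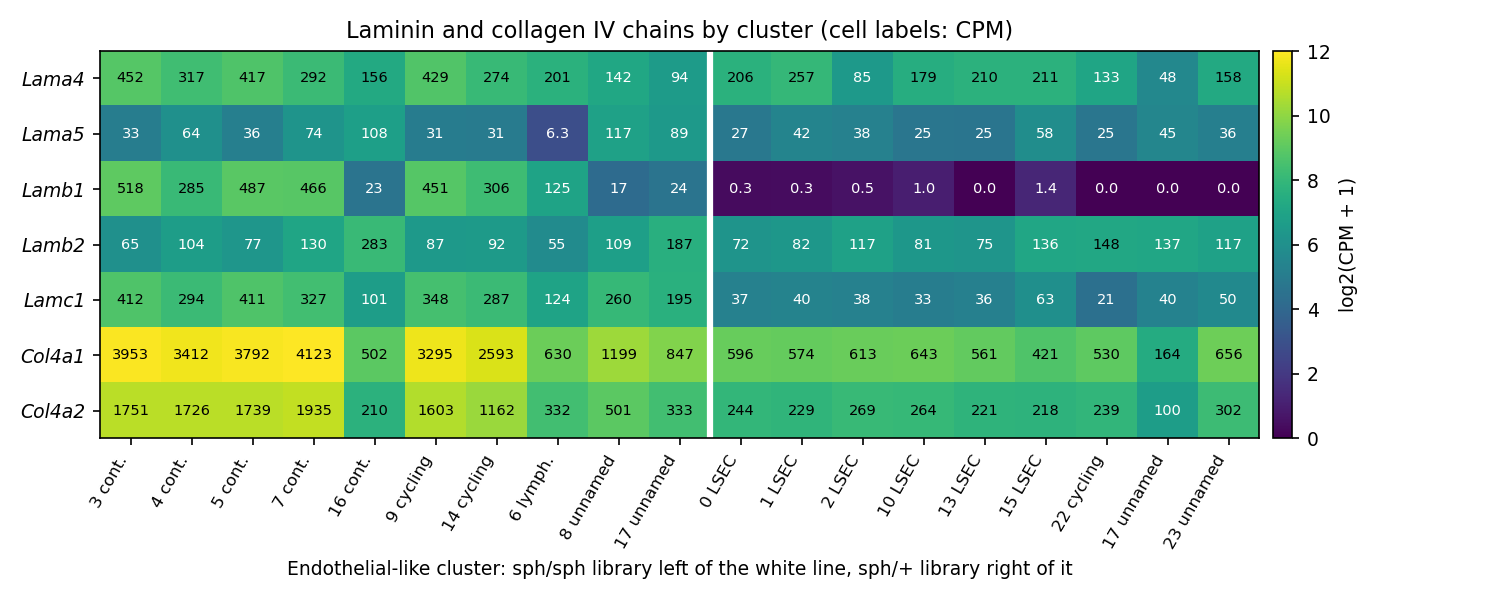
Level of the 7 measured laminin and collagen IV chains (rows) in each endothelial-like cluster with at least 50 cells of a library (columns), with the CPM printed in each field and the colour giving log2(CPM + 1). Col4a1 reached 4123 CPM in sph/sph cluster 7 and 656 CPM at most in sph/+, and Lamb1 stayed at or under 1.41 CPM in every sph/+ cluster.

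Cluster 17, with Rspo3 and Wnt9b as in the endothelium of central veins, allowed the libraries to be set side by side within 1 cluster, at 150 sph/sph and 74 sph/+ cells. Its markers detected, 7 of 12 LSEC and 8 of 15 continuous, were counted over both libraries together. Whether its cells were of the same type in each library was not tested. Itga6 had 163 CPM in sph/sph and 39.7 CPM in sph/+, a ratio of 4.10 (2.42 to 7.49). Itga5 was higher in sph/sph by a ratio of 3.28 (1.84 to 6.34) and Itgb1 by 1.71 (1.45 to 2.02). Itgb3 had 50 UMIs in sph/sph and 3 UMIs in sph/+, a ratio of 6.18 (1.995 to 31.0). Itga2 had 46 UMIs in sph/sph and 0 in sph/+, which makes it at least 5.68-fold higher when 3 UMIs are allowed for the count of 0. That floor leaves out the counting error of the 46 UMIs, and the exact interval of the kind given for the other ratios begins at 4.44. Itga1 was lower, with 230 CPM in sph/sph and 486 CPM in sph/+, a ratio of 0.473 (0.389 to 0.577). For Itga9 (92.1 CPM in sph/sph and 58.2 CPM in sph/+) and Itgav (52.9 and 29.1 CPM), the intervals of the ratio, 0.987 to 2.65 and 0.940 to 3.86, included 1. Col4a1 was higher in sph/sph by a ratio of 5.16 (3.99 to 6.80) and Lamc1 by 4.92 (2.91 to 8.95).

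Of the named endothelial-like classes, cycling cells alone had more than 50 cells in both libraries, 966 in sph/sph, mostly of clusters 9 and 14, and 120 in sph/+, mostly of cluster 22. These were unlike in endothelial markers: clusters 9 and 14 each had 2 of 12 LSEC and 13 of 15 continuous markers detected, and cluster 22 had 12 of 12 LSEC and 5 of 15 continuous markers. Cell type and genotype therefore cannot be told apart in the values of cycling cells. Itga6 had 714 CPM (691 to 738) in sph/sph cycling cells and 81.6 CPM (64.9 to 101) in sph/+ cycling cells. Itga9 had 49.8 CPM (43.9 to 56.3) and 177 CPM (152 to 205), and Itga1 had 469 CPM (450 to 488) and 837 CPM (782 to 896). Itgb1 had 772 CPM (748 to 797) and 569 CPM (524 to 618), and Itgb3 had 72.9 CPM (65.7 to 80.7) and 23.9 CPM (15.3 to 35.5). For Itgav the intervals overlapped, with 50.01 CPM (44.1 to 56.5) in sph/sph and 40.8 CPM (29.3 to 55.4) in sph/+.

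Cluster 8, in which 9 of 12 LSEC markers were detected, made up 868 of 10674 endothelial-like cells in sph/sph and none in sph/+. Set beside the LSEC-like cells of sph/+, it had 578 CPM of Itga6 against 54.7 CPM, a ratio of 10.6 (9.98 to 11.2). It had 5.18 times the Itgav level (4.61 to 5.80), 5.62 times the Itgb3 level (4.95 to 6.37) and 0.348 times the Itga9 level (0.322 to 0.375). Itga1 was at 0.420 times (0.398 to 0.443), Itga5 at 1.80 times and Itgb1 at 1.12 times. Itga2 was at 77.7 times (49.5 to 128), against 22 UMIs in the sph/+ cells. Lamc1 was at 6.71 times, Lama5 at 3.42 times, Lamb2 at 1.24 times and Lama4 at 0.748 times. Col4a1 was at 2.03 times and Col4a2 at 2.04 times. Lamb1, at 17.1 CPM against 0.430 CPM (19 UMIs), was at 39.7 times (23.6 to 70.0). The continuous vascular-like cells of sph/sph against the same sph/+ cells had ratios of 14.3 for Itga6 (13.7 to 14.9) and 0.140 for Itga9 (0.133 to 0.146).

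The other integrin subunits were mostly near or under the level of detection. Of 17, 3 were measured. Itga8, a partner of Itgb1 for nephronectin, had 3.55 CPM in sph/sph (182 UMIs) and 84.1 CPM in sph/+ (3871 UMIs), a ratio of 0.0423 (0.0362 to 0.0490). Its log2 ratio was -4.22, and -5.62 without the lymphatic-like cells. Itgb4, the laminin-binding partner of Itga6 in hemidesmosomes of epithelium, had 29.4 CPM in sph/sph (1504 UMIs) and 1.54 CPM in sph/+ (71 UMIs), and its log2 ratio was 3.58. Lymphatic-like cells gave 74.1% of the sph/sph Itgb4 UMIs, and without them the log2 ratio was 2.09. Itga3, a laminin receptor subunit, had 21.7 CPM in sph/sph and 2.02 CPM in sph/+, and 46.5% of its sph/sph UMIs came from the lymphatic-like cells. Neither Itgb4 nor Itga3 reached 20 CPM once those cells were left out. Itga8 reached 20 CPM in sph/+ only, and Itgb4 and Itga3 reached it in sph/sph only. The differences of these 3 subunits therefore follow in part from how measured genes were chosen. The leukocyte subunit Itgb2 had 31 UMIs in sph/sph and 1 UMI in sph/+.

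The lymphatic-like cluster 6 had a median of 9681 UMIs per cell, and its leading genes included the fibroblast gene Dcn and the hepatocyte gene Hamp beside the lymphatic genes Mmrn1 and Ccl21a. Over all endothelial-like cells, the 10 stellate cell and fibroblast markers summed to 394 CPM in sph/sph and 52.9 CPM in sph/+, of which Dcn gave 316 and 19.4 CPM, and no marker was at 0 in either library. The 10 hepatocyte markers summed to 221 and 99.5 CPM, none at 0. The 6 erythroid markers summed to 139 CPM in sph/sph, with none at 0, and 0.239 CPM in sph/+, with 2 at 0. The 6 mesothelial markers summed to 133 CPM in sph/sph, of which Wt1 gave 129.6 CPM, and 0.348 CPM in sph/+, with 2 at 0 in each. Macrophage, granulocyte, lymphocyte, smooth muscle, cholangiocyte and platelet lists summed to under 30 CPM in each library. The share of mitochondrial UMIs was 5.59% in sph/sph and 6.01% in sph/+, and that of ribosomal protein genes 11.3% and 8.31%. The part of these differences in the integrin values was not tested. Without the lymphatic-like cells, 4 members were still at least 2-fold higher and 1 at least 2-fold lower, with log2 ratios of 3.71 for Itga6, -2.61 for Itga9, 2.50 for Itgb3, 1.59 for Itgav and 4.59 for Itga2. Genes within 2-fold shifted too. The lymphatic-like cells gave 3.65% of the sph/sph Itga1 UMIs while holding 22.6% of the UMIs of all genes. The sph/sph level of Itga1 is therefore higher without them. The log2 ratio of Lama5 was 0.73 without them and 0.42 with them.

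Among further ligands of integrins, 12 of 21 were measured, 8 at least 2-fold higher in sph/sph, 1 at least 2-fold lower and 3 within, beside the 11.0% and 10.6% over all measured genes. Their median log2 ratio was 2.003. Of the 8, Fn1, Tnc, Thbs1 and Fbn1 (89.9 CPM in sph/sph and 16.2 CPM in sph/+) reached 20 CPM in sph/sph only. Without the lymphatic-like cells, 6 were at least 2-fold higher. The matricellular genes Thbs1 (192 CPM in sph/sph and 0.413 CPM in sph/+), Tnc (22.2 and 0.109 CPM) and Cyr61 (446 and 39.6 CPM) had log2 ratios of 7.10, 4.39 and 3.46. Fn1, the fibronectin gene, had 203 CPM in sph/sph and 1.19 CPM in sph/+, a log2 ratio of 6.54. Lymphatic-like cells gave 95.5% of the sph/sph UMIs of Fn1, 93.1% of Tnc and 63.6% of Thbs1. Itga5 in those cells was at 91.4 CPM, near its level of 106 CPM over the library.

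Of 27 intracellular linkers between integrins and actin, 21 were measured, 4 at least 2-fold higher in sph/sph, 2 at least 2-fold lower and 15 within, with a median log2 ratio of 0.16. The shares over all measured genes, 11.0% higher and 10.6% lower, stand beside these counts and those of the next 2 lists. Tln1, which activates integrins from inside, had 268 CPM in sph/sph and 325 CPM in sph/+, and Fermt2, a kindlin that acts with it, had 310 and 374 CPM. Lims2, an adaptor of the integrin-linked kinase complex, had 292 CPM in sph/sph and 36.8 CPM in sph/+, a log2 ratio of 2.96. The actin cross-linkers Flna and Actn1 had log2 ratios of 1.84 and 1.65, and the tensin Tns3 one of -1.58. Of 15 signalling genes, 13 were measured, 2 higher, 1 lower and 10 within, with a median of 0.02. With TMM factors, 1 was higher. Nedd9, a scaffold of focal adhesions, had 271 CPM in sph/sph and 58.5 CPM in sph/+ (log2 ratio 2.19), Git1 a log2 ratio of 1.01 and Crk one of -0.64. The kinase Fyn had 197 CPM in sph/sph and 538 CPM in sph/+ (-1.44). Focal adhesion kinase, Ptk2, had 147 and 152 CPM. Of 14 other matrix receptors and partners, 9 were measured, 2 higher, 1 lower and 6 within, with a median of 0.33. With TMM factors, or without the lymphatic-like cells, 1 was higher. Cd47, a partner of Itgav with Itgb3, had 471 CPM in sph/sph and 1127 CPM in sph/+ (-1.26), the laminin receptor Bcam had 114 and 51.9 CPM (1.11), Rpsa had a log2 ratio of 1.01 and Dag1 one of -0.96.

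For each measured member, the 3 genes with the most similar level over the 19 clusters were listed by Pearson r of log2(CPM + 1). The 10 sph/sph and 9 sph/+ clusters differ as groups, which weighs on every such r. For Itga6 they were Ubd (0.98), Apln (0.98) and Nav3 (0.97). For Itga9 they were Zcchc24 (0.93), Msrb3 (0.93) and Rin2 (0.92), and for Itga2 they were Ly6c1 (0.97), Dusp8 (0.95) and Zfp979 (0.94). For Itga1 they were Tnfaip1 (0.92), Mcc (0.91) and Nrp1 (0.91), and for Itga5 Pde4d (0.91), Hif1a (0.89) and Tdg (0.88). Itgb3 was followed by Ywhag (0.90), Scn3b (0.89) and Pgs1 (0.89), Itgav by Klf6 (0.86), Gem (0.84) and Gsdmd (0.84), and Itgb1 by Clic1 (0.87), Pkm (0.87) and Actb (0.86).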

How the data were processed

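The deposited values are raw UMI counts per gene and barcode, not normalized by the authors. Cell Ranger 3.0 and mm10 are named per the submitters' processing notes, while the matrix header names software version 3.1.0. The annotation release and the use of strand are not given in the sources used here. No column of the files was left unmapped (0).

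Barcodes with at least 500 genes, 1000 UMIs and at most 15% mitochondrial UMIs were kept, 13094 in sph/sph and 12304 in sph/+. Scrublet in scanpy 1.11.5 marked 0% as doublets by its automatic threshold, so the highest scores were removed at 0.8% per 1000 barcodes (13.5% and 10.9%). Counts scaled to 10000 per cell, 2000 variable genes, 30 components and 15 neighbours were clustered with leidenalg 0.10.2 at resolution 1.0, without integration (numpy 2.4.6 and scipy 1.17.1 in Python 3.11.15, with igraph 0.11.9 and scikit-learn 1.9.0). Classes were named from the 10 leading genes and from markers detected in 25% of cells: at least 10 of 12 LSEC, 5 of 15 continuous, 4 of 7 lymphatic or 3 of 13 pan-endothelial markers, or 3 cycling markers among the leading genes. An LSEC-like or continuous cluster also needed a larger share of its own list detected than of the other, and at least as many of its own markers among the leading genes as of the other list or of cycling. Clusters 8 and 17 (larger share of LSEC markers, but under 10 of them) and 23 (led by a cycling marker) therefore stayed unnamed. The number of LSEC markers needed, and the rule that a cluster led by markers of another type stays outside, were set after the data were seen.

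UMIs were summed over the cells of a library, class or cluster and scaled to CPM. With 1 CPM added to each level, the log2 ratio sets sph/sph over sph/+. A gene was measured at 20 CPM in either library and counted at 2-fold. Intervals are exact Poisson for levels and Clopper-Pearson for shares and ratios. A count of 0 was given 3 UMIs. Levels are not compared between genes. Named genes are all members, all measured laminins, collagen IV chains and other integrins, the 4 largest log2 ratios in each other list and the 3 most similar genes per member. Tln1, Fermt2, Ptk2, Itgb2, Fbn1, Col4a3 and Col4a4 were added after their values were seen. The members and lists were chosen with earlier results of these data known. The ratio, interval and counting steps were tried on counts simulated from the summed sph/+ profile, with planted changes larger than 2-fold. The simulation held no spread between animals and did not include the summing over cells. The alternatives included TMM factors from edgeR 4.0.16 in R 4.3.3. Gene positions are from GENCODE on GRCm38, and promoter windows from RefSeq on GRCm38.p6.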

Additional observations from a re-analysis of the deposited data

How the results depend on the processing

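Each ratio was recomputed under 17 alternatives of scaling, weighting, pseudocount, measured level, fold, doublets, cell filter, cell set and clustering. The log2 ratio of every measured member kept its sign and its side of 2-fold in all of them. The alternatives of measured level and fold change which genes are counted and cannot move a log2 ratio, so only the others could have altered it. Itga6 ranged from 3.33 to 3.82 (log2), Itga9 from -2.82 to -2.34, Itgb3 from 2.25 to 2.62, Itgav from 1.42 to 1.64, Itga2 from 2.57 to 4.61 and Itga1 from -0.65 to -0.13. Itgb5, which was not measured, turned to -0.75 when all deposited barcodes were summed. At 1.5-fold, 5 members were higher, 2 were lower, and 1365 genes were higher and 1601 lower (18.3% and 21.4%). With genes measured at 5 CPM, 1 laminin or collagen IV chain was lower and 1367 genes were higher. With genes measured at 50 CPM, Itga2 (27.5 CPM in sph/sph) was no longer counted, which left 7 members measured and 3 higher, and 517 genes were higher. The count of higher signalling genes was 1 in place of 2 under 4 alternatives, and that of higher other matrix receptors 1 in place of 2 under 5. Git1 and Rpsa, with log2 ratios of 1.01, lay at the 2-fold limit. By share of thinned cells with a UMI in place of CPM, the highest cluster was the same for 6 of 8 members in sph/sph and for 4 of 8 in sph/+. No paired analysis was possible because each genotype had 1 library. With 1 mouse per genotype the spread between animals is unknown, and depth limits Itga2 and Itgb5 in sph/+, at 22 and 30 UMIs.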
